A study of Mus musculus with 21 samples.

Results

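Cxcl12, Kitl, Angpt1, Vcam1 and Il7 are factors with which the stroma of the bone marrow keeps blood stem and progenitor cells in place and alive. These 5 of the 26852 genes in the expression table were taken by name, as secreted or membrane proteins of that kind, and all 5 were among the 12976 genes with enough signal to be tested. They were chosen with earlier results of these data known. Counts of members called, set beside the share of all genes, are therefore a description and may not be independent of the data. Cxcl12 is the chemokine that holds blood stem cells in the marrow through the receptor Cxcr4, Kitl (stem cell factor) signals through Kit, and Angpt1 (angiopoietin-1) through Tek. Vcam1 is a membrane protein to which blood cells bind through the integrin chains Itga4 and Itgb1, and Il7 is a cytokine that early lymphoid cells need. In mouse marrow the reticular cells rich in Cxcl12, called CAR cells and marked by the leptin receptor Lepr, are the best known source of Cxcl12 and Kitl.

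RNA was sequenced from sorted Nes-low mesenchymal cells, the stromal cells of low green fluorescence from mice in which Nestin drives the reporter, in the immunodeficient NSG strain. The mice were 8 to 12 weeks old when the human acute myeloid leukemia line HL60 or ML1 was transplanted without conditioning, and both lines released sLP-mCherry, a red protein that cells close to them take up. Of the 21 libraries, 3 came from Nestin+ NSG mice that received no leukemia (ctrl), 6 from cells with mCherry (ch+) and 6 from cells without it (ch-) at an early time point, and 6 from a late time point, with 3 of HL60 and 3 of ML1 in each leukemic group. The treatment field of the ML1 late libraries says that the mice were not engrafted, but title and time point say late, and they were kept as late. A reporter under Nestin marks whichever cells use that promoter, each of the lines is a single line grown in culture, and NSG mice lack T, B and NK cells of their own. Nothing in the labels says that the 3 libraries of a group came from separate mice, so the p-values measure the spread between these libraries, which may be technical.

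Values are the authors' regularized log2 values, in which a difference of 1 is a doubling and a weakly expressed gene is pulled toward its mean. They do not give back whole reads, so how deeply each library was sequenced is not known (the methods give a typical yield only), and the spread between replicates is the only measure of precision. A gene was called changed at a Benjamini-Hochberg adjusted p under 0.1 over all tested genes in limma. All comparisons with ctrl share the same 3 ctrl libraries, so their results are not independent of each other. Library numbers also run with the groups, so batch and group cannot be told apart in any comparison given here.

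The sorted cells carried the markers of CAR cells. All 8 CAR markers listed (Lepr, Adipoq, Pdgfra, Pdgfrb, Foxc1, Ebf1, Ebf3 and Prrx1) passed the filter, and their mean log2 value was 11.18 ± 0.20 in ctrl (SD, n = 3). It was 11.43 ± 0.24 in ch- (n = 6), 11.72 ± 0.14 in ch+ (n = 6) and 12.10 ± 0.09 in late cells (n = 6), and Lepr had the highest value of the list in each. The extraction text of the labels speaks of CD31+ endothelial cells, whereas the tissue field and the titles give mesenchymal cells. Pecam1, which encodes CD31, had a mean log2 value of 5.59 in ctrl, and the mean over 10 endothelial markers was 4.41 ± 0.11 in ctrl and 4.08 ± 0.19 in late cells, with Cdh5 the highest of them. Of the 7 endothelial markers tested, Esam fell in ch+ and late cells with the lines pooled, and none was called in ch- cells. Markers of osteoblasts (mean 14.20 in ctrl) and of cartilage cells (10.67) were also at high levels, and whether the same cells carried them was not tested. In bulk RNA, fewer cells of a type and less RNA per cell cannot be told apart, and this holds for every difference given here.

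The members covered a wide range of levels in the stroma. Compared per kilobase of exon, the mean log2 level over the 21 libraries was 12.81 for Cxcl12, 8.93 for Vcam1, 8.13 for Kitl, 6.01 for Angpt1 and 5.68 for Il7. By this measure Cxcl12 ranked 19th and Vcam1 342nd among 12945 tested genes with a length, Kitl 640th, Angpt1 3188th and Il7 3949th. Cxcl12 was above Vcam1, Vcam1 above Kitl and Kitl above Angpt1 in all 21 libraries. Angpt1 and Il7 were closest, with a mean difference of 0.33 ± 0.46 per kilobase (SD over libraries, n = 21). Angpt1 was the higher of this pair in 17 libraries and Il7 in 4, ctrl 374 and 375, HL60 late 399 and ML1 late 581. Their mean levels per kilobase were 5.01 and 5.00 in ctrl, 6.06 and 5.41 in ch-, 6.37 and 5.89 in ch+, and 6.10 and 6.07 in late cells.

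Cxcl12 (ENSMUSG00000061353, chr6:117168535-117181367, plus strand, GRCm38) was high in every group and, with the lines pooled, highest on average in late cells. With ML1 alone its mean was higher in ch+ (16.165) than in late cells (16.099). Its log2 value was 15.57, 14.89 and 15.11 in ctrl replicates 373, 374 and 375. In ch+ cells it was 16.14, 15.74 and 16.04 with HL60 and 16.34, 16.34 and 15.81 with ML1. In late cells it was 16.21, 16.44 and 16.10 with HL60 and 15.95, 16.13 and 16.22 with ML1. All ch+ and late libraries thus lay above all ctrl libraries, though the distance from ctrl 373 to the lowest ch+ library was small. In ch- cells the values were 15.67, 14.97 and 15.65 with HL60 and 15.48, 15.98 and 15.89 with ML1, and these overlapped both ctrl and ch+.

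Kitl (ENSMUSG00000019966, chr10:100015630-100100416, plus strand) followed the same order of groups with the lines pooled. It was at 10.27, 9.98 and 9.88 in ctrl, again with replicate 373 the highest. In ch+ cells it was at 10.92, 10.61 and 10.98 with HL60 and 10.88, 11.19 and 10.63 with ML1. In late cells it was at 10.81, 11.27 and 10.61 with HL60 and 10.90, 11.16 and 11.02 with ML1. Late and ch+ libraries covered nearly the same range, and all of them exceeded ctrl. In ch- cells Kitl was at 10.60, 9.71 and 10.74 with HL60 and 10.69, 10.99 and 10.71 with ML1. HL60 ch- replicate 528 lay below all ctrl libraries, and the other 5 ch- libraries lay above them.

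Angpt1 (ENSMUSG00000022309, chr15:42424723-42676977, minus strand) was the member whose ch- libraries were also clear of ctrl. Its values were 7.90, 6.99 and 7.28 in ctrl. They were 8.51, 8.11 and 8.43 in HL60 ch- and 8.28, 8.76 and 8.51 in ML1 ch- libraries. In ch+ libraries they were 8.96, 8.53 and 8.71 with HL60 and 8.90, 9.21 and 8.17 with ML1. The ch+ group held the highest mean, 8.75, and 3 ch+ libraries, HL60 524 and 525 and ML1 541, lay within the range of ch-. In late cells Angpt1 was at 8.54, 8.76 and 8.27 with HL60 and 8.10, 8.72 and 8.47 with ML1, so that all 18 leukemic libraries lay above the 3 ctrl libraries.

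Vcam1 (ENSMUSG00000027962, chr3:116109949-116129688, minus strand) was at 11.65, 11.03 and 11.51 in ctrl. In ch- cells its values were 11.81, 11.15 and 11.98 with HL60 and 12.01, 12.23 and 12.22 with ML1. HL60 ch- 528 was again low and lay among the ctrl libraries, as no other leukemic library did. In ch+ cells the values were 12.04, 12.12 and 12.27 with HL60 and 12.38, 12.33 and 11.90 with ML1. In late cells they were 12.40, 12.96 and 12.31 with HL60 and 12.25, 12.68 and 12.52 with ML1. All late libraries exceeded all ch- libraries, and Vcam1 was the sole member for which this was so.

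Il7 (ENSMUSG00000040329, chr3:7569994-7613760, minus strand) is the lymphoid cytokine among the members, and its fold changes had the largest standard error of the 5 in each comparison. It was at 7.69, 7.20 and 7.62 in ctrl. In ch- cells it was at 8.29, 6.58 and 8.30 with HL60 and 8.30, 8.27 and 7.74 with ML1. The value of HL60 ch- 528 was the lowest of all 21, below ctrl, and the remaining ch- libraries were above ctrl. In ch+ cells Il7 was at 8.27, 7.79 and 8.60 with HL60 and 8.46, 8.98 and 8.28 with ML1. In late cells it was at 8.62, 8.34 and 8.73 with HL60 and 8.30, 8.83 and 8.59 with ML1. Late and ch+ libraries were all above ctrl and overlapped each other.

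**Figure D1:**
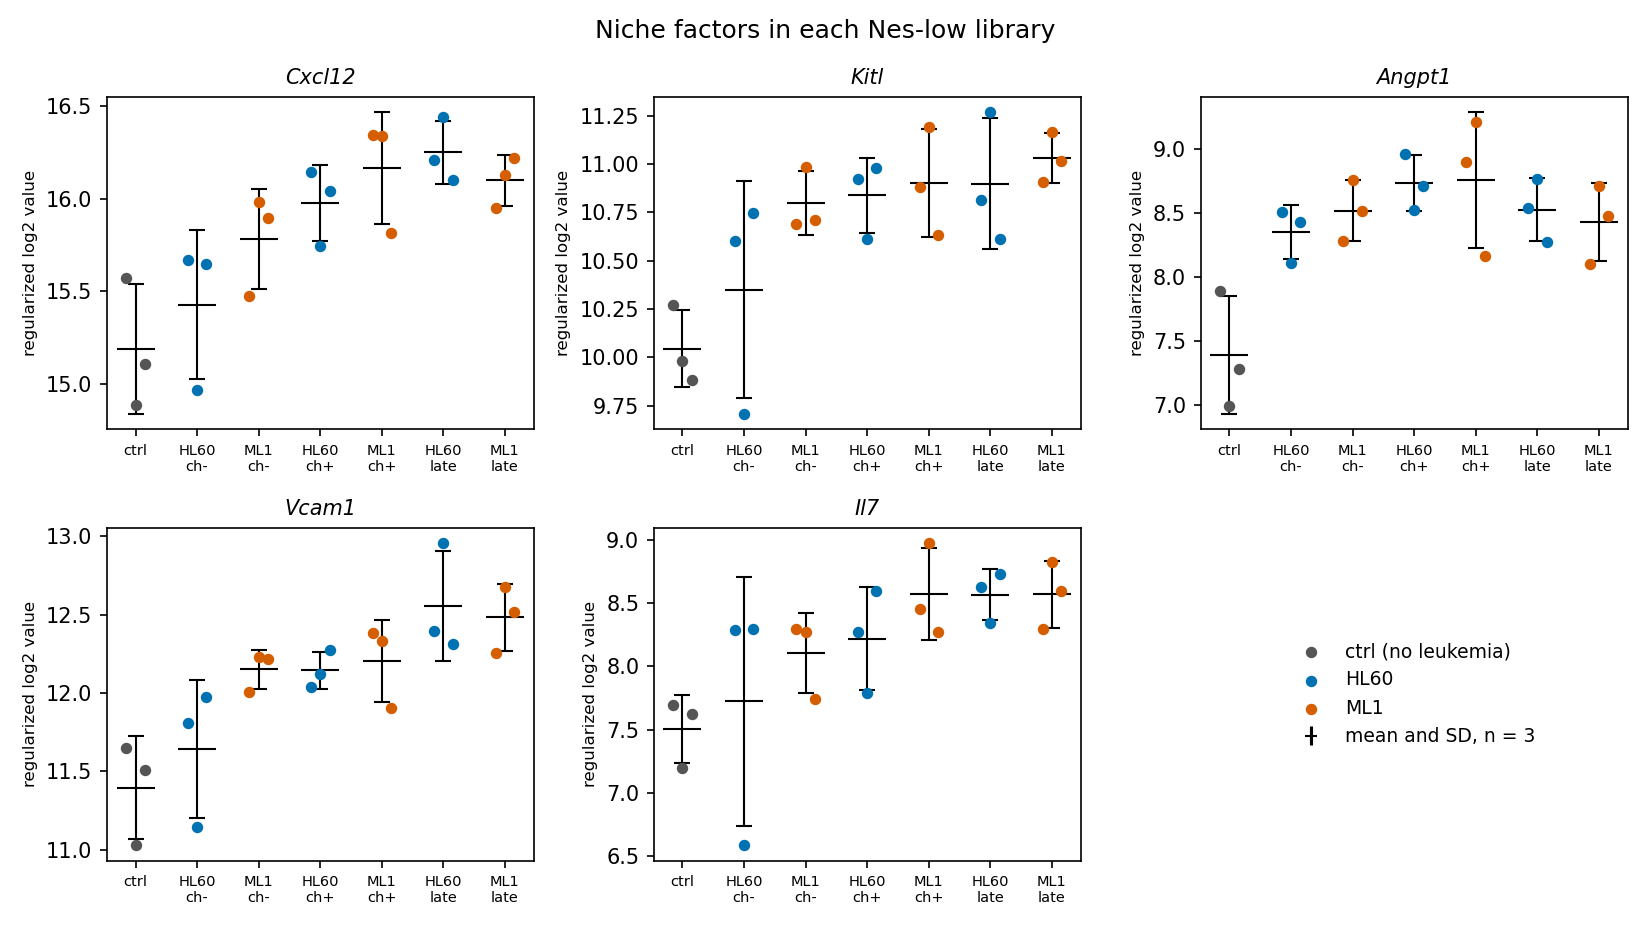
Regularized log2 value of each niche factor in each of 21 Nes-low libraries, by group on the horizontal axis (ctrl, then ch-, ch+ and late cells with HL60 or ML1). Points are libraries, black lines are the mean and SD of 3 libraries, all ch+ and late points lie above the ctrl points for each gene, and HL60 ch- holds 1 low library, replicate 528.

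Late in the disease all 5 members were higher than in ctrl on the deposited scale; with libraries set to equal CAR markers Kitl turned to -0.0029 and none was called. The log2 fold change was 0.99 (95% interval 0.60 to 1.37, adjusted p = 0.000282) for Cxcl12 and 0.92 (95% interval 0.52 to 1.32, adjusted p = 0.00097) for Kitl. It was 1.12 (95% interval 0.74 to 1.51, adjusted p = 5.53e-05) for Vcam1, the adhesion molecule. Angpt1 rose by 1.09 (95% interval 0.64 to 1.54, adjusted p = 0.000555) and Il7 by 1.06 (95% interval 0.48 to 1.65, adjusted p = 0.00883). Each member was higher in 6 of 6 late libraries than in any ctrl library. Of all tested genes 21.5% were called in this comparison and 10.2% were called higher, and the median log2 fold change was 1.06 over the members and 0.02 over all genes. Fold changes larger than that of Vcam1 were found for 4.27% of tested genes and larger than that of Kitl for 6.9%.

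Both leukemia lines showed the late rise. With HL60, 5 of 5 members were called, against 13.7% of all tested genes, with log2 fold changes from 0.85 (Kitl) to 1.16 (Vcam1). With ML1 5 of 5 were called as well, against 22% of all genes, from 0.91 (Cxcl12) to 1.09 (Vcam1). The call of Il7 with HL60 (adjusted p = 0.0312) was lost without ctrl 374 (0.132), without HL60 late 399 (0.115) or with no filter (0.153), which left 4 of 5. Beside the ML1 rise, 4 of 7 endothelial markers (Tek, Pecam1, Cdh5 and Kdr) were lower than ctrl in ML1 late cells, with a mean of the list of 3.91 ± 0.03 (n = 3). In HL60 late cells none was called (4.24 ± 0.08), nor was any between the lines, and the part of these markers was not tested. Compared directly, HL60 and ML1 late cells differed in none of the 5 members by limma at an adjusted p under 0.1 or an unadjusted p under 0.05, while 4.09% of all genes were called. The differences, HL60 minus ML1, ran from -0.13 for Kitl to 0.15 for Cxcl12 on the log2 scale, and the interval for Cxcl12 was -0.22 to 0.52. The sign of these differences depends on the scaling: with libraries rescaled to their totals all 5 were below 0, from -0.38 to -0.0958, and quantile normalization turned Cxcl12 to -1.35 with a call (adjusted p = 0.000117). Leaving out 1 library turned the sign of each of the other 4. The cause was not tested.

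The late levels depend on what the libraries are scaled to. Of the summed values of a library, taken off the log scale, the single most abundant gene made up 16.8% to 26.2% in late libraries and 29.7% to 34.2% in ctrl. Rescaling each library to an equal total took the median over all genes from 0.02 to 0.71 on the log2 scale, a shift of 0.69, and the share of called genes that were higher from 47.3% to 93.8%. The members were 0.90 to 1.10 above the median, a distance that no shift of whole libraries can change, and all 5 were called after this rescaling, at 1.61 to 1.82. Quantile normalization, which is no such shift, put Cxcl12 at 2.70 (adjusted p = 4.55e-07), at 2.02 with HL60 and at 3.37 with ML1, and the other 4 members at 0.96 to 1.12. Shifting each library to an equal mean of the 8 CAR markers instead, an alternative chosen after the data had been seen, moved the median of all genes to -0.90. Kitl was then at -0.0029 and the other members at 0.07 to 0.20, none was called, and 2.42% of the called genes were higher.

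Measured against the CAR markers of the same library, the members were little changed in late cells. The log2 value of Cxcl12 minus the mean of the CAR markers in the same library was 3.90 to 4.18 in the 3 ctrl libraries and 3.86 to 4.23 in the 6 late libraries. For Kitl it was -1.14 ± 0.15 and -1.14 ± 0.18, for Vcam1 0.21 ± 0.15 and 0.42 ± 0.22, for Angpt1 -3.79 ± 0.26 and -3.63 ± 0.23, and for Il7 -3.68 ± 0.12 and -3.53 ± 0.26 (SD, n = 3 and 6). The markers themselves did not move as 1 group: 6 of 8 rose in late cells, Pdgfrb by 2.00, Lepr by 1.97 and Ebf3 by 1.66, while Pdgfra fell by 0.38 and Adipoq, at 0.05, was not called. Markers of bone and cartilage were lower. Of 8 osteoblast markers 6 fell and 1, Spp1, rose in late cells, and their mean went from 14.20 ± 0.12 in ctrl to 13.15 ± 0.22 with HL60 and 11.06 ± 0.32 with ML1 (n = 3 each). Of 11 tested cartilage markers 11 fell, with a mean of 10.67 ± 0.61 in ctrl and 7.38 ± 0.95 in late cells. The part of these shifts in the rise of the niche factors was not tested, and a larger share of CAR cells and more RNA of these factors per cell cannot be told apart. Between the lines, 8 of 8 osteoblast and 6 of 11 cartilage markers were higher in HL60 than in ML1 late cells. In late cells 4 of 6 smooth muscle, 2 of 5 Schwann cell, 3 of 9 myeloid and 4 of 9 red cell markers also fell, while 2 of 6 pericyte markers rose and 2 fell. Single genes of the macrophage (Mrc1), skeletal muscle (Acta1) and adipocyte (Plin4) lists fell as well.

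Early ch+ cells, those marked by leukemia cells nearby, also had higher levels of all 5 members than ctrl on the deposited scale. With libraries set to equal CAR markers Angpt1 alone was called, and Cxcl12 was at 0.35, Kitl at 0.29, Vcam1 at 0.24 and Il7 at 0.35. Angpt1 rose most, by 1.36 (95% interval 0.91 to 1.80, adjusted p = 0.000196) on the log2 scale, and 0.825% of tested genes had a larger fold change. Cxcl12 rose by 0.88 (95% interval 0.50 to 1.27, adjusted p = 0.00395) and Kitl by 0.82 (95% interval 0.43 to 1.22, adjusted p = 0.0108). Vcam1 rose by 0.78 (95% interval 0.39 to 1.16, adjusted p = 0.013) and Il7 by 0.89 (95% interval 0.30 to 1.48, adjusted p = 0.0792). All members were higher in 6 of 6 ch+ libraries than in any ctrl library. The share of all tested genes called was 6.17%, and 3.41% were called higher. Without ctrl 374 the count of members called was 3, since Vcam1 (adjusted p = 0.148) and Il7 (0.285) were lost. The Il7 call was also lost without ctrl 373 (0.125), ctrl 375 (0.142), HL60 ch+ 525 (0.13), ML1 ch+ 538 (0.118) or ML1 ch+ 539 (0.158), and with no filter (0.214), no trend (0.136) or sample weights (0.12).

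By line, 4 of 5 members were called in HL60 ch+ cells (all but Il7) against 5.33% of all genes, and 5 of 5 in ML1 ch+ cells against 6.69%. Il7 was higher by 0.71 (95% interval 0.05 to 1.38, adjusted p = 0.278) with HL60 and by 1.06 (95% interval 0.40 to 1.73, adjusted p = 0.0561) with ML1. The difference between the lines in ch+ cells was not called for any member by limma, nor was any unadjusted p under 0.05, and 0.0154% of all genes were called. It ran from -0.35 (Il7) to -0.02 (Angpt1), HL60 minus ML1. Angpt1 turned to 0.0194 with libraries rescaled to their totals and to 0.0994 with equal CAR markers, where Kitl and Vcam1 turned too, and these 3 changed sign without single libraries. With HL60, Kitl lost the call without ctrl 375 (adjusted p = 0.102) or HL60 ch+ 525 (0.105), and Vcam1 lost it without ctrl 374 (0.152). With ML1, Il7 lost it without ctrl 374 (0.193) or ML1 ch+ 539 (0.243). With equal CAR markers the calls were Angpt1 with HL60 and Cxcl12 (0.38, adjusted p = 0.0717) and Angpt1 with ML1, while Vcam1 was at 0.28 with HL60 and 0.21 with ML1. Of the 8 osteoblast markers, none of which was called with the lines pooled, 3 were lower than ctrl in HL60 ch+ cells (Col1a1, Sp7 and Bglap) and 3 in ML1 ch+ cells (Col1a1, Spp1 and Sp7), and their part was not tested. With no filter or no trend Angpt1 alone was called with HL60, and Il7 was lost with ML1 (0.22 and 0.136), as it was with sample weights (0.109).

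Set against the CAR markers, Angpt1 was the 1 member that passed the test in the early groups pooled over the lines. Against the mean of those markers in the same library, Cxcl12 stood at 4.20 to 4.51 in the 6 ch+ libraries, all above ctrl, and Angpt1 at -2.97 ± 0.28 in ch+ (n = 6). Kitl stood at -0.85 ± 0.11, Vcam1 at 0.46 ± 0.12 and Il7 at -3.32 ± 0.27. In ch- cells the same measure was 4.17 ± 0.15 for Cxcl12, -0.86 ± 0.23 for Kitl, -3.00 ± 0.13 for Angpt1, 0.47 ± 0.18 for Vcam1 and -3.52 ± 0.53 for Il7 (n = 6), so that Kitl, Angpt1 and Vcam1 had nearly the same means in both early groups. Tested with libraries shifted to equal CAR markers, where the median of all genes was -0.52, Angpt1 alone was called in ch+ cells against ctrl, at 0.82 (adjusted p = 0.00687). Cxcl12 (0.35, adjusted p = 0.124), Kitl (0.29, 0.181), Vcam1 (0.24, 0.239) and Il7 (0.35, 0.296) were not. In ch- cells with the lines pooled Angpt1 alone was called on that scale too, at 0.80 (adjusted p = 0.0508). Of the CAR markers 5 of 8 rose in ch+ cells, among them Adipoq by 1.16, Ebf3 by 0.88 and Lepr by 0.67. Other marker lists moved with ch+ too. All 11 tested cartilage markers fell (mean 7.27 ± 1.07 in ch+), as did 5 of 6 smooth muscle markers (9.36 ± 0.77 in ctrl, 7.22 ± 0.30 in ch+) and 3 of 6 pericyte markers (9.99 ± 0.09 and 9.21 ± 0.14). By the methods, human and mouse CD45+ cells were depleted before the sort and the remaining cells stained for CD45 and Ter119, a red cell antigen. Markers of blood cells rose, with 9 of 9 myeloid (4.14 ± 0.62 in ctrl, 7.19 ± 0.52 in ch+) and 8 of 9 red cell genes (4.73 ± 0.35 and 7.88 ± 0.52), and 5 of 5 tested skeletal muscle genes did as well (mean of 8 listed 2.84 in ctrl and 4.70 in ch+). Of 5 Schwann cell markers 4 fell, and of 2 tested adipocyte markers 1, Plin4. Their part in the change of the members was not tested.

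**Figure D2:**
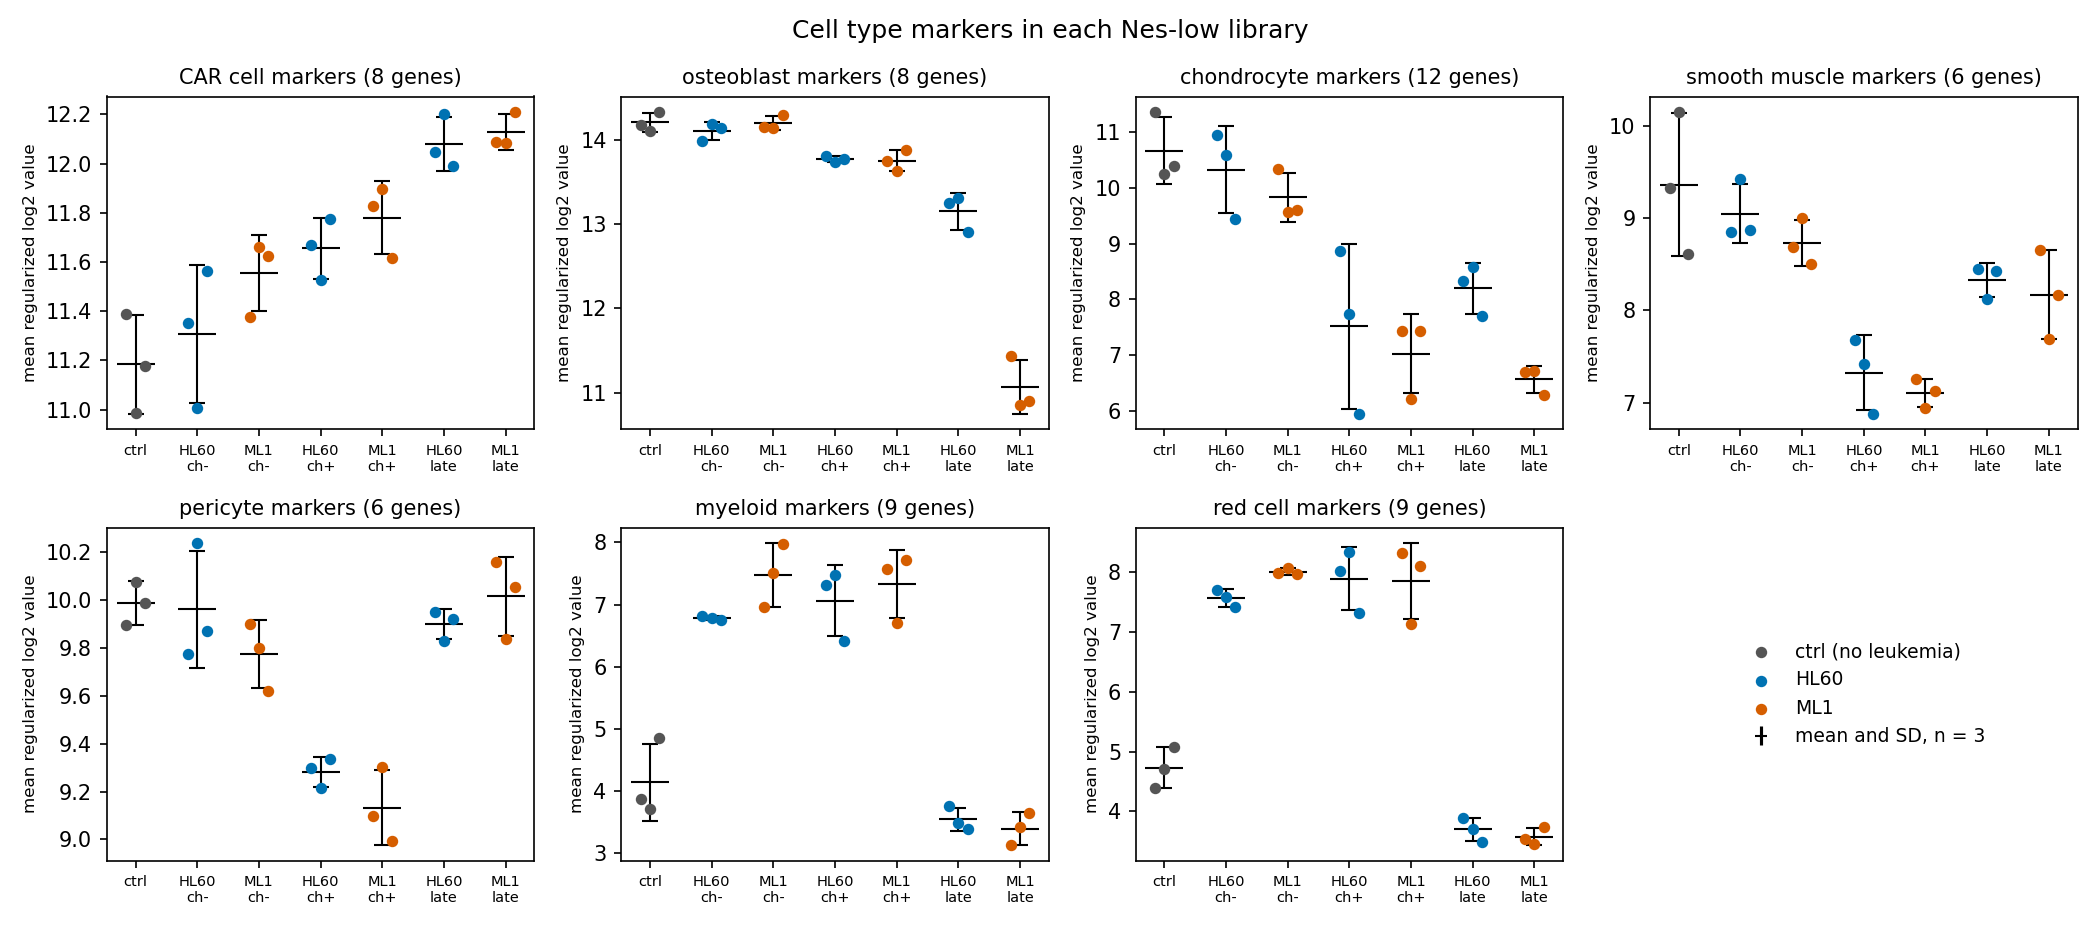
Mean regularized log2 value of the genes of 7 marker lists in each of 21 Nes-low libraries, by group, with libraries as points and the mean and SD of 3 libraries as black lines. CAR markers are highest in late cells, osteoblast markers lowest in ML1 late cells, and the blood cell lists are high in both early groups and low in ctrl and late cells.

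Early ch- cells came from the same time point but lacked the mCherry mark. With the lines pooled, Angpt1 was the 1 member called higher in them than in ctrl. At an unadjusted p under 0.05 in limma there were 4 members, against 11.9% of all genes. The log2 fold change of Angpt1 was 1.04 (95% interval 0.60 to 1.49, adjusted p = 0.0095), with 6 of 6 ch- libraries above all ctrl libraries. This 1 call of 5 stands against 1.92% of all genes. The other members had positive differences that were not called: 0.42 (95% interval 0.03 to 0.80, adjusted p = 0.374) for Cxcl12, 0.53 (95% interval 0.13 to 0.93, adjusted p = 0.239) for Kitl, 0.50 (95% interval 0.12 to 0.89, adjusted p = 0.254) for Vcam1 and 0.41 (95% interval -0.18 to 0.99, adjusted p = 0.626) for Il7. The result depends on single libraries. Without ctrl 374 the Angpt1 call was lost (adjusted p = 0.138), and without HL60 ch- 528 Kitl (log2 fold change 0.70, adjusted p = 0.0165) and Vcam1 (0.65, adjusted p = 0.039) were called beside it. Without ctrl 374 the differences of Cxcl12, Vcam1 and Il7 were smaller as well, at 0.27, 0.32 and 0.26. The highest without 1 library were 0.61 for Cxcl12 and 0.67 for Il7, neither called. Quantile normalization put Cxcl12 at 0.89, also without a call. With equal CAR markers Cxcl12 was at 0.17, Kitl at 0.28, Vcam1 at 0.25 and Il7 at 0.16, and none of these was called.

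Split by line, Angpt1 was called in HL60 ch- cells at 0.96 (95% interval 0.43 to 1.49, adjusted p = 0.0748), 1 of 5 members against 1.57% of all genes. In ML1 ch- cells 3 of 5 were called against 2.34%: Kitl at 0.75 (95% interval 0.33 to 1.17, adjusted p = 0.0665), Angpt1 at 1.13 (95% interval 0.60 to 1.66, adjusted p = 0.0193) and Vcam1 at 0.75 (95% interval 0.36 to 1.14, adjusted p = 0.0379). The HL60 call was lost without ctrl 374 (adjusted p = 0.29), ctrl 375 (0.189), HL60 ch- 527 (0.217) or HL60 ch- 529 (0.225). None of the ML1 calls was made without ctrl 374 (Angpt1 at an adjusted p of 0.141, Kitl at 0.183, Vcam1 at 0.219) or without ML1 ch- 544 (0.115, 0.22 and 0.134). Without ML1 ch- 546 Angpt1 alone was called (Kitl 0.109, Vcam1 0.116), and Kitl was also lost without ctrl 375 (0.197) or ML1 ch- 543 (0.103). Cxcl12, at an adjusted p of 0.107 with ML1, was called without any 1 of 5 libraries, ctrl 373 (0.0259), HL60 ch+ 524 (0.099), HL60 ch- 528 (0.0615), ML1 ch+ 541 (0.0787) or ML1 ch- 543 (0.0601). With no filter, no trend or libraries rescaled to their totals no member was called with HL60 and Angpt1 alone with ML1. The compared groups alone also gave no call with HL60, and Kitl with ML1 was lost with sample weights (0.129) and with rescaling that left out the top gene (0.103). With equal CAR markers Angpt1 was not called with HL60 (0.84, adjusted p = 0.156), and with ML1 Kitl (0.38, 0.223) and Vcam1 (0.38, 0.178) were not. Quantile normalization put Cxcl12 with ML1 at 1.18 with a call (adjusted p = 0.00262). No member was called between the lines in ch- cells by limma, where 0.0539% of all genes were called. At an unadjusted p under 0.05 there were 2 members. On the deposited scale all differences had HL60 below ML1, from -0.51 for Vcam1, whose 3 HL60 libraries were all below the 3 of ML1 (adjusted p = 0.588), to -0.17 for Angpt1. Without HL60 ch- 528 that of Vcam1 was -0.26 and that of Il7 turned to 0.19, and with equal CAR markers that of Angpt1 turned to 0.0795.

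The blood cell markers were high in ch- cells too. Their means in ch- were 7.13 ± 0.50 for the myeloid list, of which 8 of 9 genes rose over ctrl, and 7.79 ± 0.26 for the red cell list, of which 7 of 9 rose. With the lines pooled, the CAR, osteoblast, cartilage, smooth muscle and pericyte lists held no called gene in ch- cells, and with HL60 alone they held none either. In ML1 ch- cells, where Kitl, Angpt1 and Vcam1 were called, 3 of 8 CAR markers were higher than in ctrl (Ebf3, Adipoq and Lepr) and Col2a1 of the cartilage list and Myh11 of the smooth muscle list were lower. The gene with the highest value in the myeloid list was Lyz2, at 9.21 in ch-, 8.96 in ch+, 7.93 in ctrl and 6.78 in late cells. In the red cell list it was Hbb-bs, at 11.71, 11.81, 7.59 and 4.64 in the same order. Macrophage, megakaryocyte and adipocyte lists had 2 tested genes each, and their means did not pass 2.10, 1.92 and 3.89 in any of the 4 groups. A list of Schwann cell genes stood at a mean of 5.91 (ctrl), 6.01 (ch-), 4.59 (ch+) and 5.16 (late). Taken off the log scale, the CAR markers summed to 18160 to 24790 (ctrl libraries), 18760 to 29740 (ch-), 25950 to 36620 (ch+) and 45780 to 60700 (late). The sums of the osteoblast list, led by Col1a1, were 1247000 to 1700000, 1027000 to 1446000, 932800 to 1097000 and 80640 to 522100 in that order. For the cartilage list, led by Col2a1, they were 78710 to 167300, 38500 to 92960, 8498 to 28310 and 3194 to 20350. For the myeloid list they were 272.5 to 640.9 in ctrl and 117.3 to 266.4 in late libraries, against 1663 to 3402 in ch- and 1239 to 3030 in ch+. Ptprc, which marks most blood cells, had a mean log2 value of 2.56 in ctrl and 2.43 in late cells, against 4.21 in ch- and 4.79 in ch+. The part of these lists in the values of the members was not tested.

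**Figure D3:**
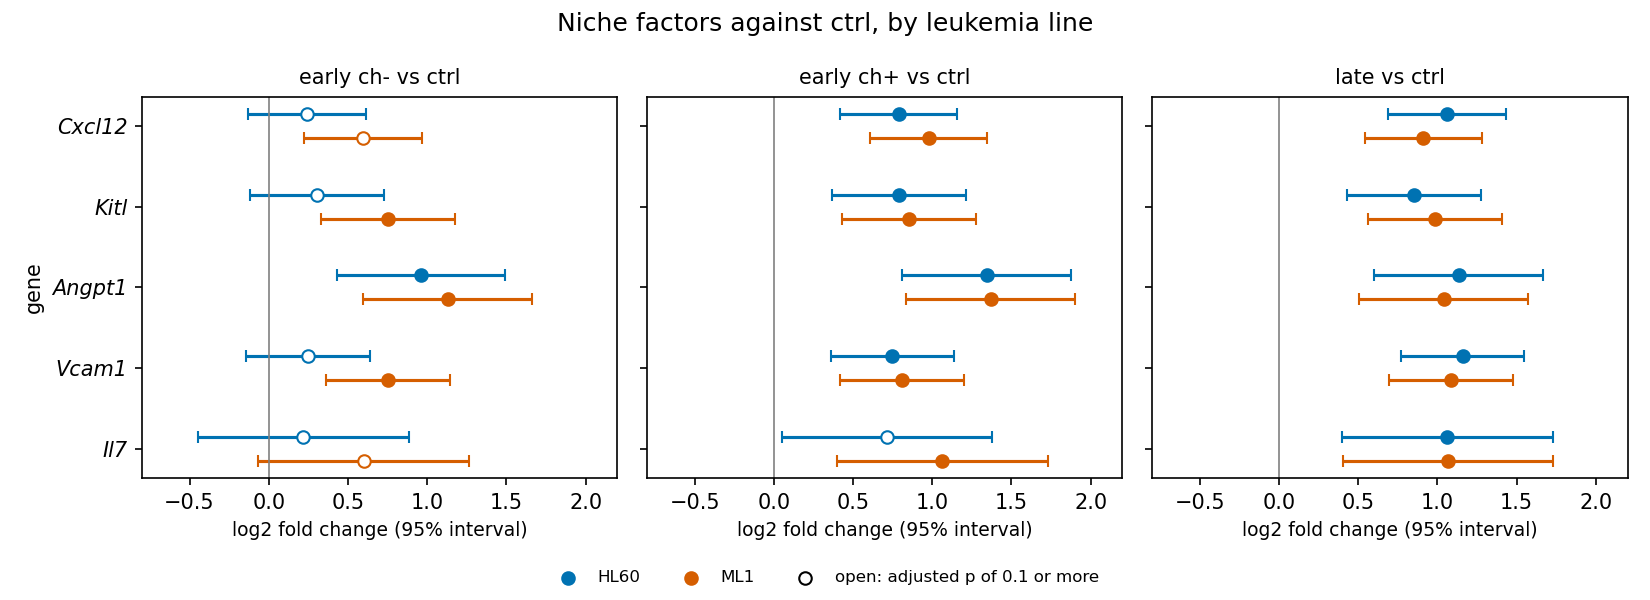
Log2 fold change of each niche factor against ctrl with its 95% interval (horizontal axis) for ch-, ch+ and late cells, with HL60 and ML1 apart and filled points for an adjusted p under 0.1 in limma. On the deposited scale shown, all late points are filled, Il7 with HL60 is open in ch+, and in ch- the points filled are Angpt1 in both lines and Kitl and Vcam1 with ML1.

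The mCherry mark can be examined directly, since ch+ and ch- cells come from the same stage. The paper's results say that both were taken from the same marrow, but no label pairs their libraries, and they were tested as separate samples. Of 5 members 1, Cxcl12, was called higher in ch+ cells, by 0.46 (95% interval 0.15 to 0.78, adjusted p = 0.0871), in a comparison in which 6.26% of all genes were called. The groups overlapped in all 5 members. The other differences were 0.30 (95% interval -0.03 to 0.62, adjusted p = 0.382) for Kitl, 0.31 (95% interval -0.06 to 0.68, adjusted p = 0.424) for Angpt1, 0.28 (95% interval -0.04 to 0.59, adjusted p = 0.397) for Vcam1 and 0.48 (95% interval 0.00 to 0.96, adjusted p = 0.322) for Il7. Without HL60 ch- 528 the differences were 0.12 for Kitl, 0.13 for Vcam1 and 0.21 for Il7. The Cxcl12 call did not hold without any 1 of 8 libraries: HL60 ch+ 523 or 525, HL60 ch- 527, 528 or 529, ML1 ch+ 538 or 539, or ML1 ch- 543, with adjusted p from 0.114 to 0.256. It also did not hold with no filter (0.185), no trend (0.182), a robust fit (0.109), sample weights (0.153) or quantile normalization (0.91, at a difference of 0.09), nor with equal CAR markers, where Vcam1 turned to -0.0107. In this comparison 11 of 11 tested cartilage markers and 5 of 6 smooth muscle markers were lower in ch+ cells, and none of the myeloid or red cell genes differed at an adjusted p under 0.1. Also lower in ch+ were 3 of 6 pericyte markers (Rgs5, Mcam and Notch3), 4 of 5 Schwann cell markers, Spp1 of the osteoblast list and Plin4 of the adipocyte list, while S100b of the Schwann cell list and Ebf1 of the CAR list were higher. Their part in the difference of Cxcl12 was not tested.

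Within a line, no member passed the test between ch+ and ch- cells in limma. All ch+ libraries lay above all ch- libraries in 3 members with HL60 (Cxcl12, Angpt1 and Vcam1) and in 0 with ML1. With HL60 the differences ran from 0.38 (Angpt1) to 0.55 (Cxcl12, adjusted p = 0.121), 3 of 5 had an unadjusted p under 0.05, and 3.92% of all genes were called. With ML1 they ran from 0.05 (Vcam1) to 0.47 (Il7), 1 of 5 had an unadjusted p under 0.05, and 4.25% of all genes were called. The ML1 signs were not stable: Cxcl12 turned to -0.0977 with quantile normalization, Kitl and Vcam1 turned to -0.12 and -0.17 with equal CAR markers, and both were also below 0 without single ML1 libraries (-0.0408 and -0.0339 at the lowest). Cxcl12 with HL60 was called without any 1 of 5 libraries, ctrl 373, HL60 ch+ 524, HL60 ch- 527 or 529, or ML1 ch+ 541, with adjusted p from 0.0831 to 0.0946, and Vcam1 was called beside it without HL60 ch- 529. Without HL60 ch- 528, by contrast, Cxcl12 was at 0.32 (adjusted p = 0.581), Kitl at 0.17, Vcam1 at 0.25 and Il7 at -0.0739, and quantile normalization put Cxcl12 at 0.28. Marker lists moved within each line too. In both, 11 of 11 tested cartilage, 3 of 6 pericyte and 4 of 5 Schwann cell markers were lower in ch+, and S100b and Ebf1 were higher. Smooth muscle markers were lower as well, 5 of 6 with HL60 and 3 of 6 with ML1. With HL60 Cdh5, Ptprc and Adipoq were higher and Plin4 lower. With ML1 Acta1 and Tnnt3 were higher and Spp1 and Sp7 lower. Their part in the differences of the members was not tested. Whether the mark went with another difference in HL60 than in ML1 was tested as an interaction. None of the 5 members was called, no unadjusted p was under 0.05, and the estimates ran from 0.03 (Il7) to 0.45 (Vcam1), while 0.00771% of all genes were called. The estimate of Il7 turned to -0.0304 with libraries rescaled to their totals, -0.13 with sample weights, -0.0932 with equal CAR markers and -0.54 without HL60 ch- 528, and those of Cxcl12 and Angpt1 changed sign without single libraries.

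Late cells were then set against the early groups, to see whether the levels moved on after the early stage. No member was called between late and ch+ cells by limma, whereas 19.7% of all genes were. The difference, late minus ch+, was 0.10 (95% interval -0.21 to 0.42, adjusted p = 0.754) for Cxcl12 and 0.09 (95% interval -0.23 to 0.42, adjusted p = 0.787) for Kitl. Vcam1 had the largest, 0.34 (95% interval 0.03 to 0.66, adjusted p = 0.144), which was the 1 member with an unadjusted p under 0.05 and was called without HL60 ch- 528 (adjusted p = 0.0678), a library outside the compared groups that enters the shared estimate of spread. Angpt1 stood apart in sign at -0.27 (95% interval -0.63 to 0.10, adjusted p = 0.384), which turned to 0.35 when libraries were rescaled to their totals, with a median of all genes of 0.63. With that scaling the other 4 members were called higher, at 0.71 to 0.96, and the 5 members stood at -0.29 to 0.33 from the median of all genes, which a shift of whole libraries leaves as it is. Quantile normalization put Cxcl12 at 1.72 with a call (adjusted p = 1.09e-05). With equal CAR markers all 5 were below 0, and Angpt1 was called lower at -0.65 (adjusted p = 0.00482).

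Against ch- cells 4 of 5 members were higher in late cells, with 22.5% of all genes called. Vcam1 differed by 0.62 (95% interval 0.31 to 0.94, adjusted p = 0.00374) and Cxcl12 by 0.57 (95% interval 0.25 to 0.88, adjusted p = 0.00796). Il7 differed by 0.66 (95% interval 0.18 to 1.13, adjusted p = 0.0502) and Kitl by 0.39 (95% interval 0.06 to 0.71, adjusted p = 0.0934). Angpt1 did not change by the test, at 0.04 (95% interval -0.32 to 0.41, adjusted p = 0.915). Without ML1 late 582 or without HL60 ch- 528 the count was 2, Cxcl12 and Vcam1. The adjusted p of Il7 was then 0.104 and 0.168, and without HL60 ch- 528 the differences shrank to 0.39 for Il7 and 0.22 for Kitl. The Kitl call was lost without any 1 of 11 libraries, with adjusted p from 0.101 to 0.305: ctrl 374, ML1 late 581, 582 or 583, HL60 late 398, HL60 ch+ 523 or 525, HL60 ch- 527 or 528, ML1 ch+ 538 and ML1 ch- 543. It was also lost with no filter (0.158), no trend (0.175) or the compared groups alone (0.129), and that of Il7 with no filter (0.102). Quantile normalization put Cxcl12 at 1.81. With libraries at equal CAR markers all 5 differences were below 0, from -0.63 (Angpt1) to -0.02 (Il7), against a median of all genes of -0.67, and Kitl (-0.28) and Angpt1 were called lower. With libraries rescaled to their totals all 5 were called higher, Angpt1 at 0.81 against a median of 0.77. Marker lists moved in this comparison as well. In late cells 6 of 8 CAR markers were higher than in ch- and 2 lower (Adipoq and Pdgfra), and 9 of 9 myeloid, 7 of 9 red cell, 7 of 8 osteoblast, 11 of 11 cartilage, 5 of 5 skeletal muscle, 3 of 6 smooth muscle and 3 of 5 Schwann cell markers were lower. Pericyte markers went both ways (2 higher, 2 lower), and Pecam1, Ppbp and Plin4 of the endothelial, megakaryocyte and adipocyte lists were lower. Against ch+ cells, 5 of 8 CAR, 4 of 6 smooth muscle and 4 of 6 pericyte markers were higher in late cells, and 9 of 9 myeloid, 8 of 9 red cell, 6 of 8 osteoblast and 3 of 7 endothelial markers were lower, as were 3 CAR markers, Adipoq, Pdgfra and Ebf1. All 5 tested skeletal muscle genes, Col2a1, Mrc1, Ppbp, Cspg4 and S100b were lower than in ch+ too, and Spp1 and Sox10 were among those higher. Their part in the differences of the members was not tested.

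The members moved together from library to library. Over the 21 libraries, which share the 4 groups, Pearson's r between members ran from 0.645 (Angpt1 and Il7) to 0.926 (Cxcl12 and Vcam1), and Spearman's rho for these pairs was 0.54 and 0.912. With the mean of the CAR markers, r was 0.932 for Vcam1, 0.913 for Cxcl12, 0.854 for Kitl, 0.804 for Il7 and 0.617 for Angpt1. With the cartilage list it was -0.499 (Angpt1) to -0.689 (Cxcl12), with the smooth muscle list -0.602 (Vcam1) to -0.679 (Cxcl12), and for Angpt1 -0.669, larger in size than with the CAR markers. It was -0.491 (Vcam1) to -0.666 (Il7) with the Schwann cell list, -0.424 (Il7) to -0.581 (Angpt1) with the adipocyte list, -0.181 (Angpt1) to -0.546 (Vcam1) with the osteoblast list and -0.255 (Vcam1) to -0.512 (Angpt1) with the pericyte list. With the myeloid list it was -0.163 (Vcam1) to 0.367 (Angpt1), and with the endothelial, red cell, macrophage, megakaryocyte and skeletal muscle lists it lay between -0.328 and 0.392. These values describe the libraries and include the differences between groups.

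Among all tested genes, the 3 with the pattern most like each member were often other members. For Cxcl12 they were Arrdc4 (r = 0.942), Vcam1 (0.926) and Kitl (0.913), and for Kitl they were Vcam1 (0.915), Cxcl12 (0.913) and Arrdc4 (0.909). For Vcam1 they were Cxcl12 (0.926), Arrdc4 (0.921) and Ebf3 (0.92), a transcription factor of CAR cells. The mean log2 value of Arrdc4, an arrestin-like protein, was 9.65 ± 0.45 (ctrl, n = 3), 10.28 ± 0.49 (ch-), 10.79 ± 0.39 (ch+) and 11.22 ± 0.21 (late, n = 6 each). Angpt1 was most like Mocos (0.84), Grem1 (0.836), an inhibitor of bone morphogenetic proteins, and Cxcl12 (0.823). Il7 was most like the peptidase gene Mme (0.904), Ccbe1 (0.875) and Kitl (0.857). All r are over 21 libraries.

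The receptors of these ligands are known from blood and vessel cells. Of 11 genes listed as receptors and partners, 7 were tested. The mean log2 value of Cxcr4 was 4.43 in ctrl and 3.95 in late cells, and that of Tek 4.46 and 3.93. Kit, at 5.22 to 5.99 in the ctrl libraries, was called in opposite directions in the lines, higher in HL60 late cells (6.55 to 7.49) and lower in ML1 late cells (3.81 to 5.30), and it was called higher in HL60 than in ML1 late cells. Tek was called lower than ctrl in ML1 late cells (3.53 ± 0.21), as it was not in HL60 late cells (4.33 ± 0.18), and no call was made between the lines. Il7r, with a mean of -1.69 in ctrl and -1.70 in late cells, was near the lowest value of the table. In late cells Angpt2, another ligand of Tek, rose by 1.23 (adjusted p = 0.00193), and Ackr3, a second receptor of Cxcl12 that takes the chemokine up, fell by 1.78 (adjusted p = 2.43e-06). In ch+ cells Ackr3 rose instead, by 0.71 (adjusted p = 0.0931), and was the 1 gene of the list called there. None was called in ch- cells.

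Other factors that support blood cells were listed for comparison, 19 of 21 of them tested. In late cells 10 rose and 2 fell, against 21.5% of all genes called, with a median log2 fold change of 0.61 (0.02 over all tested genes). Ccl2, a chemokine for monocytes, rose by 2.69, Il6 by 1.93, Cxcl14 by 1.73 and Igf1 by 1.34, and Slit2 fell by 0.61. In HL60 late cells 7 rose and 0 fell (13.7% of all genes called), and Il6 and Slit2 were not called. In ML1 late cells 8 rose, with Il6, and 3 fell, with Slit2 (22% of all genes called). Between the lines Il6, Lif and Ccl2 were called lower in HL60 than in ML1 late cells. Igf1, Bmp4, Spp1, Gas6, Slit2 and Fgf1 were called higher. In ch+ cells, where 6.17% of all genes were called, Igf1 (1.10) and Gas6 (0.92) rose and Fgf1 fell by 2.10, with a median of 0.41. In ch- cells, where 1.92% of all genes were called, none of the list was. Of 7 tested proteases that cut Cxcl12, Kitl or Vcam1 or act on the matrix around them, Mmp14 (0.63) and Mmp9 (1.16) rose and Mmp2 fell by 1.06 in late cells. In HL60 late cells Mmp9 was not called. Between the lines Mmp9 was called lower and Mmp2 higher in HL60 than in ML1 late cells. Elane, a neutrophil gene also in the myeloid list, was the 1 protease called against ctrl in either early group. It rose by 3.00 in ch+ cells and was called higher in ch- cells too, pooled and with each line. Genes driven by NF-kB, a factor that also acts on the Vcam1 promoter, were called in 5 of 8 cases in late cells, against 21.5% of all genes. These were Relb, Tnfaip3, Nfkb2, Cxcl1 and Ccl2, all higher. With HL60 3 of 8 were called (13.7% of all genes) and with ML1 6 of 8 (22%). Tnfaip3, Cxcl1 and Ccl2 were called lower in HL60 than in ML1 late cells. None was called in ch+ or ch- cells, where 6.17% and 1.92% of all genes were, and the list's medians there were 0.23 and 0.32.

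Members overlap other genes on the opposite strand in 3 cases. The antisense gene Gm43109 shares 1238 bases with Vcam1, Gm16685 shares 1056 with Il7 and Gm17473 shares 737 with Angpt1. The means of Gm43109 and Gm17473 stayed under 1.81 on the log2 scale in each of the 4 groups. Gm16685 had a mean of 3.89 (ctrl), 4.73 (ch-), 4.77 (ch+) and 5.27 (late). The shared bases are those of whole gene spans, introns included. The methods describe reads that keep the strand and a counting set to use it. Whether the reads of Gm16685 and Il7 were in fact kept apart was not tested.

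Since the members move together, their promoters were read from the RefSeq table of 250 bases before to 50 after a gene's start (GRCm38.p6), which held 2 of 5, Cxcl12 and Kitl. Each was searched on both strands for CCCNNGGG, the letters bound by EBF factors such as Ebf3, and GGNNTTTCC, those of NF-kB. Of 32841 windows of this length 13.7% hold the first and 5.83% the second, and neither Cxcl12 nor Kitl holds either, which says only that these letters are not in these windows. The letters TATAAA, the core of the TATA box, were searched after the data had been seen: they are in 13.6% of windows and in that of Kitl, 25 bases before the RefSeq start, where capitals mark them. The start of Kitl given with its position above (chr10:100015630) differs from this RefSeq start and lies upstream of these letters. The windows are chr6:117168285-117168584 (plus strand, Cxcl12) and chr10:100015571-100015870 (plus strand, Kitl), 64.7% and 68.7% G and C, with 20 and 28 CG pairs.
Cxcl12: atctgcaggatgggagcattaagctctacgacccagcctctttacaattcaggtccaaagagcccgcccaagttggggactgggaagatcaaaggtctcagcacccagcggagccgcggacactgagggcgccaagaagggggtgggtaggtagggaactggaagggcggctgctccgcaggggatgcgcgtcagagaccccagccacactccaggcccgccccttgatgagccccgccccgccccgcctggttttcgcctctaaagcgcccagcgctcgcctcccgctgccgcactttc
Kitl: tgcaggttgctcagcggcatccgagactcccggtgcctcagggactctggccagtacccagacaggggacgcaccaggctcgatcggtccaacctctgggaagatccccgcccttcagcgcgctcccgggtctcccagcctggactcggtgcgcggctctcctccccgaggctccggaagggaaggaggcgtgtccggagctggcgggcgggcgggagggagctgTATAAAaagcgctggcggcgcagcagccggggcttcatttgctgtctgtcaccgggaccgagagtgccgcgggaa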

How the data were processed

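RNA-seq of 21 libraries of sorted Nes-low cells was analysed in 4 stages (ctrl, early ch-, early ch+, late) and 7 groups (by leukemia line), named from titles and time points. The authors aligned strand-specific paired reads to mm10 with STAR 2.5.1b, counted genes by strand with RSEM 1.2.29, and used DESeq2 (1.10.1 in the submitters' processing notes) for normalization and a regularized log transformation. The deposited values are log2 values: the table runs from -2.33 to 22.44, and the log10 scale named in the methods would give impossible read numbers. The values are not counts and the depth of single libraries is unknown, so no count test was run, and the test fixed for log2 values was used. Of 26852 genes, 26722 (99.5%) matched GENCODE vM21 (GRCm38), which gave symbols, positions and exon lengths.

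Genes with a mean of at least 3.32 (10 normalized counts) entered limma 3.58.1 (R 4.3.3), with eBayes and trend, all 21 libraries in 1 fit of 4 stages or, for the lines apart, of 7 groups, and two-sided moderated tests with Benjamini-Hochberg adjustment over 12976 genes in each of 18 comparisons. The method was tested on simulated data, from which no value is given here. The genes named are the 5 members, the called genes and the highest-valued genes of the lists, and the 3 genes with the highest r to each member. The members and lists were chosen with earlier results of these data known. Of 151 listed symbols 150 matched. Alternatives were other filters, scalings, variance settings, weights, fits, a threshold of 0.05 and leaving out each library; a shift to equal CAR markers was chosen after seeing the data. Promoters are from RefSeq. Figures were drawn with matplotlib 3.10.9 (Python 3.11.15).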

Additional observations from a re-analysis of the deposited data

Results flagged for a closer look

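In the early ch- group of 6 libraries, HL60 replicate 528 stood apart from the others in 2 members. For Kitl its log2 value of 9.71 lay below the next lowest, 10.60, by a gap that is 0.697 of the range of the group. For Il7 its value of 6.58 lay below the next lowest, 7.74, by 0.675 of the range. Both ratios exceed Dixon's 95% critical value for 6 samples. Of 15 combinations of a member and a group of 6 that were examined, 2 passed, and chance passes about 1 in 20. Both passes are of the same library, in members that move together (r = 0.857 over 21 libraries), and each group of 6 holds both lines. The combinations are thus not independent, and no excess over that rate can be read from them. For Vcam1 the ratio of the same library was 0.613, under that value. This library also had the lowest mean of the 8 CAR markers among the ch- libraries, 11.01. The part of that in its low values was not tested.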

How the results depend on the processing

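Over 33 other settings, 21 of which left out 1 library each, 2690 of 2910 values of the members, over all 18 comparisons, kept their direction and their side of the threshold, 117 kept the direction and lost the call, 31 gained it and 72 reversed. Many of these directions could not change. No filter, no trend, a robust fit, the compared groups alone and a stricter threshold leave a fold change as it was. So does leaving out a library outside the compared groups. Members not called under either setting also count as keeping their side. The tally is therefore a description and no measure of how robust the values are. All pooled calls of late against ctrl held without each library in turn. No paired analysis was run, because no label says which ch+ and ch- cells shared a mouse and the order of library numbers was not taken as a pairing. The depth of each library is unknown, DESeq2 and other pseudocounts were not run because they need counts, and library numbers run with the groups, so batch and group cannot be told apart. Where a value changed, the cause was not tested.

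Without 1 library, the number of members called was 5 to 5 for late against ctrl, 3 to 5 for ch+, 0 to 3 for ch-, 0 to 1 for ch+ against ch-, 0 to 1 for late against ch+ and 2 to 4 for late against ch-. By line it was 4 to 5 (HL60) and 5 to 5 (ML1) in late cells, 3 to 4 and 4 to 5 in ch+, 0 to 1 and 0 to 4 in ch-. For ch+ against ch- it was 0 to 2 and 0 to 0. The difference of Angpt1 between late and ch- cells ran from -0.0214 to 0.12 and that of Il7 between HL60 ch- and ctrl from -0.0695 to 0.79. For ch+ against ch- Il7 ran from -0.0739 to 0.78 with HL60, and with ML1 Kitl ran from -0.0408 to 0.24 and Vcam1 from -0.0339 to 0.20. Between the lines in late cells Kitl ran from -0.32 to 0.0141, Angpt1 from -0.0687 to 0.24, Vcam1 from -0.13 to 0.19 and Il7 from -0.14 to 0.12. In ch+ cells Kitl ran from -0.20 to 0.0812, Angpt1 from -0.32 to 0.20 and Vcam1 from -0.21 to 0.0281, and in ch- cells Il7 ran from -0.67 to 0.19. The interaction ran from -0.0663 to 0.32 for Cxcl12, -0.15 to 0.37 for Angpt1 and -0.54 to 0.32 for Il7.

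For ch+ against ch- the call of Cxcl12 was lost (0 members called) with no filter, quantile normalization, no trend, a robust fit, sample weights and the threshold of 0.05. For late against ch+, 1 member was called with quantile normalization (Cxcl12), the compared groups alone (Vcam1) and the lines averaged (Vcam1), and 4, all but Angpt1, with rescaling to the library total, with or without the top gene, where Angpt1 turned to 0.35 and 0.22. For late against ch-, 2 were called with no filter and at 0.05, and Angpt1 was at -0.0118 with sample weights. In HL60 ch+ cells 1 was called with no filter and without trend. In HL60 ch- cells 0 were called with no filter, rescaling to the total, without trend, the compared groups alone and at 0.05. In ML1 ch- cells 1 was called with no filter, rescaling to the total and without trend. For HL60 ch+ against ch-, 1 (Cxcl12) was called with rescaling to the total and the compared groups alone. Between HL60 and ML1 late cells Cxcl12 was called with quantile normalization, 1 member at -1.35, and was at -0.0958 and -0.0046 with rescaling to the total with and without the top gene, where Angpt1 was at -0.15 and -0.0596 and Vcam1 at -0.17 and -0.0813. Il7 was at 0.0515 with sample weights. In ch+ cells the difference of Angpt1 between the lines was 0.0194 and 0.0030 with the same pair of rescalings. For ML1 ch+ against ch-, Cxcl12 was at -0.0977 with quantile normalization. The interaction for Il7 was -0.0304 with rescaling to the total and -0.13 with sample weights.

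The shift to equal CAR markers was chosen after seeing the data. Members called were then 0 in late cells (0 with HL60, 0 with ML1), 1 in ch+ (1 and 2), 0 in HL60 ch-, 1 in ML1 ch-, 0 for ch+ against ch-, 1 for late against ch+ and 2 for late against ch-. Kitl in late cells was at -0.0029 (-0.0436 with HL60), Cxcl12 in ML1 late cells at -0.0334 and Vcam1 in ch+ against ch- at -0.0107. Late against ch+ gave Cxcl12 -0.28, Kitl -0.29, Vcam1 -0.0409 and Il7 -0.21. Late against ch- gave Cxcl12 -0.11, Kitl -0.28 and Angpt1 -0.63 (both called lower), Vcam1 -0.0516 and Il7 -0.0177. ML1 ch+ against ch- gave Kitl -0.12 and Vcam1 -0.17. Between the lines it gave Il7 0.0446 in late cells, Kitl 0.0608, Angpt1 0.0994 and Vcam1 0.0647 in ch+ cells and Angpt1 0.0795 in ch- cells, and Il7 -0.0932 for the interaction.

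The number of all genes called in late against ctrl was 2795, and 2116 to 9329 over the settings other than leaving out a library. In ch+ it was 800 (512 to 4802), in ch- 249 (156 to 353), in ch+ against ch- 812 (605 to 2230), in late against ch+ 2555 (2012 to 9031) and in late against ch- 2920 (2325 to 10161). By line it was 1778 (1378 to 8333) in HL60 late, 2851 (2282 to 8781) in ML1 late, 692 (427 to 2780) in HL60 ch+, 868 (533 to 4808) in ML1 ch+. For ch- against ctrl it was 204 (126 to 215) with HL60 and 304 (170 to 1137) with ML1. For ch+ against ch- it was 509 (352 to 1012) with HL60 and 552 (362 to 757) with ML1, and between the lines 531 (393 to 1183) in late cells. In ch+ the lines differed in 2 (0 to 8), in ch- they differed in 7 (0 to 9), and the interaction gave 1 (0 to 2). Without 1 library, ch- against ctrl gave 136 to 280 pooled, 106 to 227 with HL60 and 180 to 340 with ML1, and HL60 ch+ against ch- gave 295 to 541. Of the genes called, the share that was higher moved with rescaling to the total from 45.3% to 95.3% in late against ch-, 44.6% to 93.5% in late against ch+, 57.1% to 78.6% in ch+ against ch-, 55.4% to 66.7% in ch+ and 59% to 41.9% in ch-. With equal CAR markers it was 3.23%, 8.79%, 9.91%, 2.35% and 20.3% in the same order.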
